A study of Mus musculus with 23 samples.

Results

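The endoplasmic reticulum (ER) chaperone and unfolded protein response module holds 33 named genes, all of which were listed in both deposited tables of liver read counts and all of which passed the filter on low counts. The genes were taken by symbol from a list of ER folding factors, ER-associated degradation (ERAD) components, stress sensors and translocation proteins, out of 24434 genes listed for males, 24940 for females and 22852 in both tables. The study sequenced polyadenylated RNA from mouse livers in which Cpt1a, which encodes the carnitine palmitoyltransferase of the outer mitochondrial membrane that gates fatty acid oxidation, was ablated in hepatic tissue. The 4 groups were 5 B100-Control males (replicates 1, 2, 3, 4 and 6), 6 B100-LKO males, 6 B100-Control females and 6 B100-LKO females. All of them carried the B100 label, received a diet given as WD for 16 weeks and were killed fed, so that by label controls and LKO mice of a sex differ in genotype alone. The labels do not give the animals' age, the Cre line or promoter behind the LKO allele, or whether any litters were shared, and p-values measure the spread between these samples.

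Secreted and membrane proteins, which the liver makes in large amounts, fold in the ER with the help of luminal chaperones, disulfide isomerases and lectin chaperones. When unfolded proteins accumulate, the sensors IRE1 (encoded by Ern1), ATF6 and PERK (encoded by Eif2ak3) raise transcription of folding and degradation factors, in part through the transcription factor XBP1, and PERK slows translation. ERAD moves proteins that fail to fold back to the cytosol for destruction by the proteasome. Counts per gene do not separate spliced from unspliced Xbp1 transcripts, and in bulk liver a lower value from fewer cells of a type and from less RNA per cell cannot be told apart.

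Cpt1a checked the labels. It was 63.2 ± 20.5 CPM (read counts relative to library size, scaled for library composition, mean ± SD, n = 6) in LKO males against 356 ± 51.1 in control males (n = 5), and 75.6 ± 8.71 in LKO females against 387 ± 57.7 in control females (n = 6 each). No LKO value reached a control value in either sex. By edgeR with Benjamini-Hochberg adjustment the log2 fold change of Cpt1a was -2.50 in males (adjusted p = 9.97e-05) and -2.35 in females (adjusted p = 3.69e-08). Libraries held 14224665 to 19626662 counts, and the shallowest was control male replicate 4. Hepatocyte markers (Alb, Ttr, Apoa1 and others) summed to between 51090 and 96670 CPM in every library, so the defining markers of the labelled tissue were abundant.

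A sequence recurs before some of these genes. The ER stress element, written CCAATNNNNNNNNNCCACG, is known from the promoters of unfolded protein response genes, so it is not independent of a list of such genes. It pairs a binding site of the factor NF-Y with one of ATF6 or XBP1. It was searched on both strands in the 250 bases before each RefSeq transcription start (build GRCm38.p6), together with ER stress element II (ATTGG, 1 base of any kind, then CCACG) and an XBP1 element (TGACGTGG), and the motifs were counted separately with overlaps allowed. A promoter entry matched 26 of the 33 members by symbol. Hyou1, Sil1, Manf, Derl1, Atf6, Sec61a1 and Ostc had none. The ER stress element was found before 10 of these 26 genes (38.5%), against 35 of 27025 genes in the whole table (0.13%). Element II was found before 1 member, Herpud1, and before 0.037% of all genes, and the XBP1 element before 0 of 26 members and 0.603% of all genes. A match had to lie wholly within the 250 bases. The window of Herpud1 ends in ccaatggatggcagccac, the ER stress element up to its last letter, and the base after it was not searched. The matches are given as they read on the strand of the gene, with the fixed letters of each motif in capitals, because they are the sites shared by 11 of the 26 members with an entry. The other 15 had none. Only exact matches to the fixed letters were counted, so a gene without a match may still hold a variant of an element.
Hspa5: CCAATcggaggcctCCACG
Hsp90b1: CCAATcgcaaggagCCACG
Hsp90b1: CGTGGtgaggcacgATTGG
Dnajc3: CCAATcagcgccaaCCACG
Pdia6: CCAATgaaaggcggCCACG
Ero1b: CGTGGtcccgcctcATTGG
Calr: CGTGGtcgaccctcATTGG
Canx: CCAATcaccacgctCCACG
Creld2: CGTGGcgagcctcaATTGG
Syvn1: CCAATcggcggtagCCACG
Derl3: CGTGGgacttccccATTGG
Herpud1: ATTGGgCCACG

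The motif lies on the opposite strand in Ero1b, Calr, Creld2 and Derl3 and in the second match of Hsp90b1. As printed, on the strand of the gene, these matches therefore begin with CGTGG. Within the 250 bases searched the matches began between 44 bases before the start, for Syvn1, and 212 bases before it, for the first of Hsp90b1. Whole windows are printed, with the complete matches in capitals, for 4 members with a match whose values are given by liver: Hspa5 (chr2:34771840-34772089, plus strand), Creld2 (chr15:88819396-88819645, plus strand), Derl3 (chr10:75893148-75893397, plus strand) and Herpud1 (chr8:94386179-94386428, plus strand).
Hspa5: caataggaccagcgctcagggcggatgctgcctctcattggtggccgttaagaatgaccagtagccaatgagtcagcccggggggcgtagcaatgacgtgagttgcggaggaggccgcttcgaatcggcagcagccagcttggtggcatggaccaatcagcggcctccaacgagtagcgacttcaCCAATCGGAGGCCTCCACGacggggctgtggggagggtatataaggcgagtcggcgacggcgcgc
Creld2: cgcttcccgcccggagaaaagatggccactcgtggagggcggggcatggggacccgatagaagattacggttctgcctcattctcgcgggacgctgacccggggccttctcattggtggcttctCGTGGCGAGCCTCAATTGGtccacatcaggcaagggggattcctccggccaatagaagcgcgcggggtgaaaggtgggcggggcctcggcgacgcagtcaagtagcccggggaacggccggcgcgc
Derl3: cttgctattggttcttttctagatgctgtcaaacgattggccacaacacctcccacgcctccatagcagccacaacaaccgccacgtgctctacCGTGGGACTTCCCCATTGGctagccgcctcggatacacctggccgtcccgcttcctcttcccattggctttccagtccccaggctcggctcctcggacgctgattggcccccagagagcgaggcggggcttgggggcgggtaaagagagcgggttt
Herpud1: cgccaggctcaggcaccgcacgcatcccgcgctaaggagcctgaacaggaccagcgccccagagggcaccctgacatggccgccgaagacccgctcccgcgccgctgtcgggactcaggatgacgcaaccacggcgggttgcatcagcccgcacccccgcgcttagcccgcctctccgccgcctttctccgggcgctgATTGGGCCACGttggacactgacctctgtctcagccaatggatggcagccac

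Edem1 and Derl2, the members that passed the test in LKO females, had no match to any of these motifs. The window of Edem1 (chr6:108828391-108828640, plus strand) and those of the 2 annotated starts of Derl2 (chr11:71019304-71019553 and chr11:71019842-71020091, minus strand) are given for comparison.
Edem1: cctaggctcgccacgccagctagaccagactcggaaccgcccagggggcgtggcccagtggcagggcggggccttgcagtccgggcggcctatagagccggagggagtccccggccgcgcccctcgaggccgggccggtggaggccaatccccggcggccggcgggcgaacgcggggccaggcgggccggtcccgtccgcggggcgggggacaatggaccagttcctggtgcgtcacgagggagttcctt
Derl2: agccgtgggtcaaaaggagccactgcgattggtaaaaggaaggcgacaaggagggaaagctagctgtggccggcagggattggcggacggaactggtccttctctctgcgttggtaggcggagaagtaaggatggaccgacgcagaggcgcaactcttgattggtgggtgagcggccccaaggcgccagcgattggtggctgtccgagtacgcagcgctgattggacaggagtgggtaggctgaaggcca
Derl2: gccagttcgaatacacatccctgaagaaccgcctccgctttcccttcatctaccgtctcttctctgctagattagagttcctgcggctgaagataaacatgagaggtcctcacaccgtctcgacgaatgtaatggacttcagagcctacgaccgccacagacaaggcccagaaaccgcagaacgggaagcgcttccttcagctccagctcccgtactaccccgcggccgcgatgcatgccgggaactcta

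The members span a wide range of levels. On the authors' FPKM scale, which divides by gene length, the most abundant in control males were Calr, a calcium-binding lectin chaperone, at 232 ± 47.5 (SD, n = 5), Herpud1, a membrane scaffold of the ERAD complex, at 205 ± 33.8, and Hspa5, the HSP70 chaperone also called BiP, at 116 ± 23.7. In control females Herpud1 led with 338 ± 69 (n = 6), followed by Calr at 188 ± 19.5 and Hspa5 at 110 ± 25.6. The sensors Atf6, Ern1 and Eif2ak3 stood near the bottom in both groups, with Atf6 at 4.72, Ern1 at 2.75 and Eif2ak3 at 1.34 to 2.31 FPKM in control males, and Derl3, a derlin known from secretory cells, was lowest at 1.93 in males and 1.5 in females. Most neighbours in this order overlapped in range. In control males 5 of 32 neighbouring pairs did not overlap (Herpud1 over Hspa5, Derl1 over Canx, Sec61a1 over Sel1l, Atf6 over Ern1, and Ern1 over Eif2ak3), and in control females 3 of 32 did not (Herpud1 over Calr, Derl1 over Canx, and Atf6 over Ern1).

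**Figure D1:**
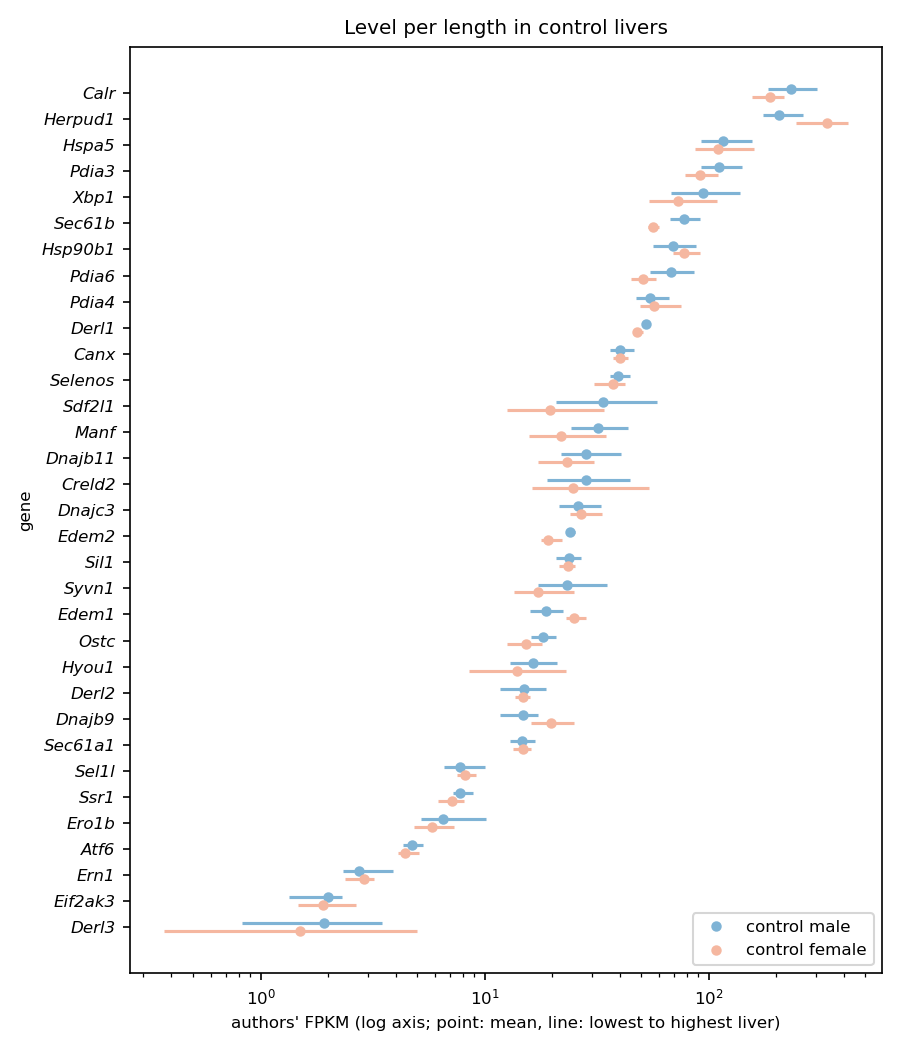
FPKM of each member in control livers (log axis), with a point at the mean and a line from the lowest to the highest liver, for 5 control males and 6 control females. Calr, Herpud1 and Hspa5 are at the top in both sexes and Derl3 is at the bottom.

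In LKO males no member passed the test. The comparison asks whether loss of hepatic Cpt1a moved the folding machinery of male livers, and 0 of 33 members had an edgeR adjusted p under 0.05, where 0.00724% of the genes tested did (1 of 13805, Cpt1a itself). An unadjusted p under 0.05 was reached by 3 members, against 12.5% of all genes tested, and the authors' deposited table called 0 members in males and 0.438% of its genes. The members' log2 fold changes were positive in 20 and negative in 13, with a median of 0.07 beside 0.01 for all genes tested. LKO and control males overlapped for every member, where 1.69% of genes did not overlap.

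A single liver stood apart among the males. LKO male replicate 1 held more RNA of 25 of the 33 members than any of the other 22 livers. The share of all genes highest there over all livers is not given, so the 25 has no background beside it. Among the LKO males it was the highest for 27 members, where 24.8% of all genes were highest in that liver. Its median difference from the control male mean was 0.56 on the log2(CPM + 1) scale, with 30 of 33 members above that mean. LKO male replicate 2 came next, at 0.23 with 29 members above the mean, while LKO males 3 and 5 stood lowest, at -0.28 and -0.30 with 3 members each above it. Among the controls, control male replicate 4 was the highest, at 0.34, and led its group for 24 members, where it led for 25.3% of all genes. The standard deviation of log2(CPM + 1) was larger in LKO than in control males for 29 of 33 members (41.6% of all genes), and for 22 of 33 without LKO male replicate 1 (36.4% of all genes). The median of the members' standard deviations was 0.343 in LKO males and 0.235 in control males, and without that liver it was 0.235 in LKO males too.

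**Figure D2:**
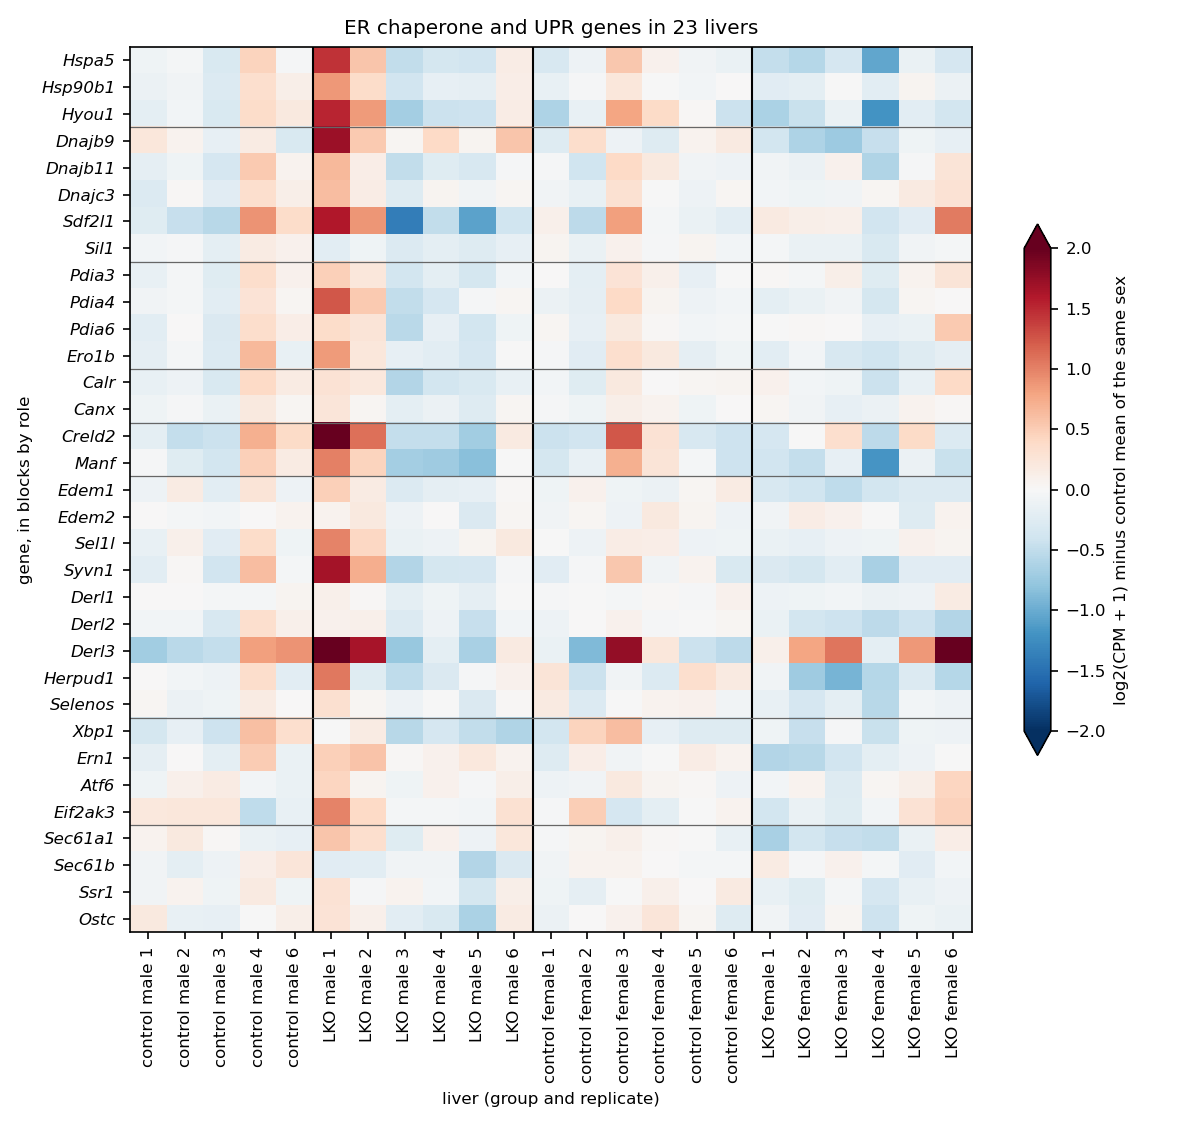
Difference of each member (rows, in blocks by role) from the control mean of the same sex, in log2(CPM + 1), in each of the 23 livers (columns). LKO male replicate 1 is the reddest column, with 30 of 33 members above the control mean, and LKO female replicate 4 is blue, with 31 of 33 at or below it.

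The luminal chaperones show the pattern. Hspa5 (chr2:34661982-34667559 in the tables, whose build is mm39) read 456, 473, 393, 655 and 474 CPM in control males 1, 2, 3, 4 and 6. In LKO males its lowest value was 341, its median 457 and its highest 1321, which was LKO male replicate 1. That liver held 2.83 times the mean of the other 5 LKO males, which ranged from 341 to 707 around the control values. The log2 fold change of Hspa5 was 0.30 (edgeR, SE 0.31, adjusted p = 0.751), and without LKO male replicate 1 it was -0.08. Hyou1, a large HSP70-like chaperone and exchange factor for BiP, read 102, 112, 94.2, 151 and 134 CPM in the controls and 72.8, 108 and 339 (lowest, median, highest) in LKO males. Its log2 fold change of 0.37 (edgeR, SE 0.35, adjusted p = 0.718) became -0.01 without that liver.

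Creld2, a stress-induced disulfide-handling protein of the ER, and Derl3 had the largest standard deviations of log2(CPM + 1) among the LKO males, 1.23 and 1.72. Creld2 read 31.9, 26.0, 26.9, 60.6 and 47.7 CPM in control males, and 22.3, 33.8 and 206 (lowest, median, highest) in LKO males. LKO male replicate 1 held 5.27 times the mean of the other LKO males. Its log2 fold change was 0.78 (edgeR, SE 0.54, adjusted p = 0.583), and 0.02 without LKO male replicate 1. Derl3 read 1.65, 1.93, 2.06, 6.60 and 6.95 CPM in control males, and 1.53, 3.29 and 53.5 in LKO males, so that the same liver stood 12 times above the mean of the others. The log2 fold change of Derl3 was 1.71 (edgeR, SE 0.90, adjusted p = 0.456), and 0.23 without it. Sdf2l1, a partner of BiP-associated J-domain proteins, and Syvn1, the ubiquitin ligase HRD1 of ERAD, were 3.71 and 3.29 times the mean of the other LKO males in that liver, and are named here after their values were seen.

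Not every member was high in LKO male replicate 1. Sil1, a nucleotide exchange factor for BiP, was there at 0.984 times the mean of the other LKO males, and Edem2, a mannosidase-like ERAD protein, at 1.06 times. Sec61b, a small subunit of the translocation channel, was 83.7 CPM there, within the range of the others. Xbp1 was at 1.26 times the mean of the other LKO males there, within their range, and at 0.96 times the control male mean. Sil1 and Sec61b had the lowest p of their role groups in males. Sil1 read 79.1, 80.7, 71.3, 92.2 and 87.1 CPM in control males and 67.6, 70.7 and 77.2 in LKO males, a difference of -0.21 on the log2 scale (edgeR, SE 0.08, adjusted p = 0.304). Sec61b read 93.2, 85.7, 91.1, 108 and 117 CPM in control males and 65.2, 84.3 and 93.6 in LKO males, with a log2 fold change of -0.25 (edgeR, SE 0.11, adjusted p = 0.377). The groups overlapped for both genes.

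The other role groups of males had no called member either. Dnajb9, a J-domain partner of BiP also called ERdj4, read 44.0, 39.3, 33.4, 41.9 and 30.0 CPM in control males and 38.5, 51.9 and 124 in LKO males. Its log2 fold change was 0.66 (edgeR, SE 0.27, adjusted p = 0.343) and was 0.32 without LKO male replicate 1. Pdia4, a protein disulfide isomerase, read 124, 128, 113, 159 and 135 CPM in control males and 93.0, 131 and 312 in LKO males, with a log2 fold change of 0.27 that became -0.03 without the same liver. Calr had a log2 fold change of -0.15 and Xbp1 one of -0.34 (edgeR, SE 0.20, adjusted p = 0.510). With LKO male replicate 1 left out, 8 members were positive and 25 negative, the median was -0.08, and 0 were called.

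Cpt1a was 96.5 CPM in LKO male replicate 1, the highest of the LKO males (42.1 to 78.2 in the others) and below every control. Its hepatocyte markers summed to 72500 CPM, the highest of the LKO males (51090 to 58627 in the others), and its stellate cell markers to 214 CPM, the lowest (279 to 491 in the others). Its plasma and B cell markers summed to 86.5 CPM, second to the 106 of LKO male replicate 3 and above the other 4 (38.1 to 54.0). Its macrophage (409 CPM), cholangiocyte (4.53), endothelial (162) and pancreatic acinar markers (0.338) lay within the range of the other LKO males. The part of the Cpt1a level and of these cell markers in the members' values was not tested.

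In LKO females 2 members fell, both of them ERAD genes. Edem1 is a mannosidase-like protein that directs misfolded glycoproteins to degradation, and Derl2 is a derlin of the membrane export complex. They were 2 of 33 members (6.06%) with an edgeR adjusted p under 0.05, where 1.42% of 13684 genes tested were called and 0.49% were called lower. Edem1 (chr6:108805602-108836317, mm39) read 150, 161 and 183 CPM in control females (lowest, median, highest) and 115, 128 and 136 in LKO females. All 6 LKO values were below all 6 control values, and the log2 fold change was -0.36 (edgeR, SE 0.07, adjusted p = 0.0265). Derl2 (chr11:70897990-70910667, mm39) read 112, 121 and 128 CPM in control females and 80.2, 90.2 and 110 in LKO females, again without overlap, with a log2 fold change of -0.40 (edgeR, SE 0.08, adjusted p = 0.0256). Groups did not overlap for 0.585% of genes in the lower direction. Derl2 overlaps the opposite-strand gene Mis12 by 231 bases in the tables, and Mis12 had at most 206 counts in a library against at least 1383 for Derl2.

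Markers of cell types were also compared between the female groups, where 15.6% of all genes tested had an unadjusted p under 0.05. Hepatocyte markers were negative in 6 of 6, 2 of them with an unadjusted p under 0.05, and their sum had a median of 85590 CPM (79600 to 96670) in control and 74250 CPM (53910 to 86070) in LKO females. Stellate cell markers were positive in 6 of 6 (3 with an unadjusted p under 0.05), with a summed median of 248 CPM (209 to 267) against 294 (194 to 373), and plasma and B cell markers in 5 of 5 tested (3 with an unadjusted p under 0.05), with 34.8 CPM (27.2 to 43.8) against 51.2 (27.7 to 789). Cholangiocyte markers were positive in 4 of 4, macrophage markers in 3 of 6 and endothelial markers in 1 of 5. By edgeR adjusted p none of these was called. The pancreatic acinar gene Cela2a, the 1 gene of its list that was tested, was called lower (edgeR adjusted p = 0.033), with the list's sum at most 1.97 CPM in any library. In males 12.5% of all genes tested had an unadjusted p under 0.05. Hepatocyte markers were positive there in 1 of 6 (2 with an unadjusted p under 0.05) and stellate cell markers in 5 of 6. Macrophage markers were positive in males in 5 of 6 (1 with an unadjusted p under 0.05) and endothelial markers in 4 of 5. Plasma and B cell markers were positive there in 1 of 5 and cholangiocyte markers in 1 of 4 (2 with an unadjusted p under 0.05), and none was called. The part of these cell types in the members' values was not tested.

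Both calls were near the threshold. Each was lost without LKO female 2, 3 or 4 or control female 5 or 6, where the lowest adjusted p of any member was 0.0506 to 0.0656, and in 1 fit of all 23 samples (edgeR adjusted p = 0.121 for Edem1 and 0.0739 for Derl2), while the authors' deposited table gave them an adjusted p of 9.05e-05 and 0.000296. That table, which called 2.22% of its genes in females, also had Herpud1 lower, with an adjusted p of 0.0387.

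Most other members also had negative values in females, without passing the test. An unadjusted p under 0.05 was reached by 13 of 33 members, all with a negative fold change, where 15.6% of all genes tested reached it and 7.33% did so in the lower direction. Fold changes were negative in 25 of 33 members, with a median of -0.12 beside 0.01 for all genes tested. The members varied together between livers, so these counts are not counts of independent genes. By liver, LKO female replicate 4 stood lowest, with a median difference of -0.37 from the control female mean on the log2(CPM + 1) scale and the lowest LKO value for 18 members, and the other 5 LKO females had medians of -0.13 to -0.04. Control female replicate 3 was the highest control, at 0.19, and led its group for 22 members, where it led for 14.5% of all genes. Without LKO female replicate 6, 32 members were negative, and without LKO female replicate 4, 23 were. Without control female replicate 3 the median log2 fold change was -0.07, and 8 members had an unadjusted p under 0.05 with a negative fold change without LKO female replicate 4 or without control female replicate 4.

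Among the luminal chaperones, Hspa5 read 370, 434 and 673 CPM in control females and 225, 348 and 422 in LKO females, with a log2 fold change of -0.48 (edgeR, SE 0.16, adjusted p = 0.144). The highest control was replicate 3 and the lowest LKO liver was replicate 4. Hyou1 had a log2 fold change of -0.55 (edgeR, SE 0.23, adjusted p = 0.26) and Hsp90b1, the ER HSP90 chaperone, one of -0.12. Dnajb9 read 41.7, 49.8 and 64.5 CPM in control females and 29.8, 37.5 and 47.1 in LKO females, a difference of -0.41 on the log2 scale (edgeR, SE 0.13, adjusted p = 0.139). The other J-domain and exchange factors Dnajb11, Dnajc3, Sdf2l1 and Sil1 lay between -0.12 and 0.16.

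Ero1b, an oxidase that reoxidises disulfide isomerases, read 32.8, 37.1 and 48.7 CPM in control females and 28.8, 32.5 and 37.2 in LKO females, with a log2 fold change of -0.25 (edgeR adjusted p = 0.248). The isomerases ranged from -0.12 for Pdia4 to 0.06 for Pdia6, and none passed the test. The lectin chaperones Calr and Canx were at -0.02 and -0.03. Manf, a secreted ER-stress factor, read 56.1, 70.1 and 123 CPM in control females and 32.4, 55.8 and 68.6 in LKO females, with a log2 fold change of -0.48 (edgeR, SE 0.20, adjusted p = 0.256).

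Herpud1 was the next ERAD gene in order of p. It read 579, 812 and 989 CPM in control females and 410, 525 and 745 in LKO females, so the groups overlapped, and its log2 fold change was -0.51 (edgeR, SE 0.16, adjusted p = 0.125). Syvn1 was at -0.35 and Selenos, a selenoprotein of the same export complex, at -0.23, while Edem2, Sel1l and Derl1 lay between -0.05 and 0.00. Derl3 went the other way: it read 0.752, 1.69 and 9.91 CPM in control females and 1.82, 4.76 and 26.8 in LKO females, with LKO female replicate 6 highest. Its log2 fold change was 1.39 (edgeR, SE 0.69, adjusted p = 0.351). The plasma and B cell markers summed to 40.6 CPM in LKO female replicate 6 and to 789 CPM in LKO female replicate 5, where Derl3 was 4.9 CPM.

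Of the sensors, Ern1 read 19.6, 24.3 and 26.5 CPM in control females and 15.6, 19.4 and 23.5 in LKO females, with a log2 fold change of -0.30 (edgeR, SE 0.11, adjusted p = 0.2). Xbp1 was at -0.24, Atf6 at 0.08 and Eif2ak3 at 0.00. Sec61a1, the pore of the translocation channel, read 90.6, 100.4 and 108 CPM in control females and 63.5, 75.3 and 110 in LKO females, with LKO female replicate 6 above every control. Its log2 fold change was -0.30 (edgeR, SE 0.12, adjusted p = 0.216), and without that liver it was -0.41 (edgeR adjusted p = 0.0404). Ssr1 and Ostc, of the translocon-associated and oligosaccharyltransferase complexes, were at -0.17 and -0.15, and Sec61b at -0.01.

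**Figure D3:**
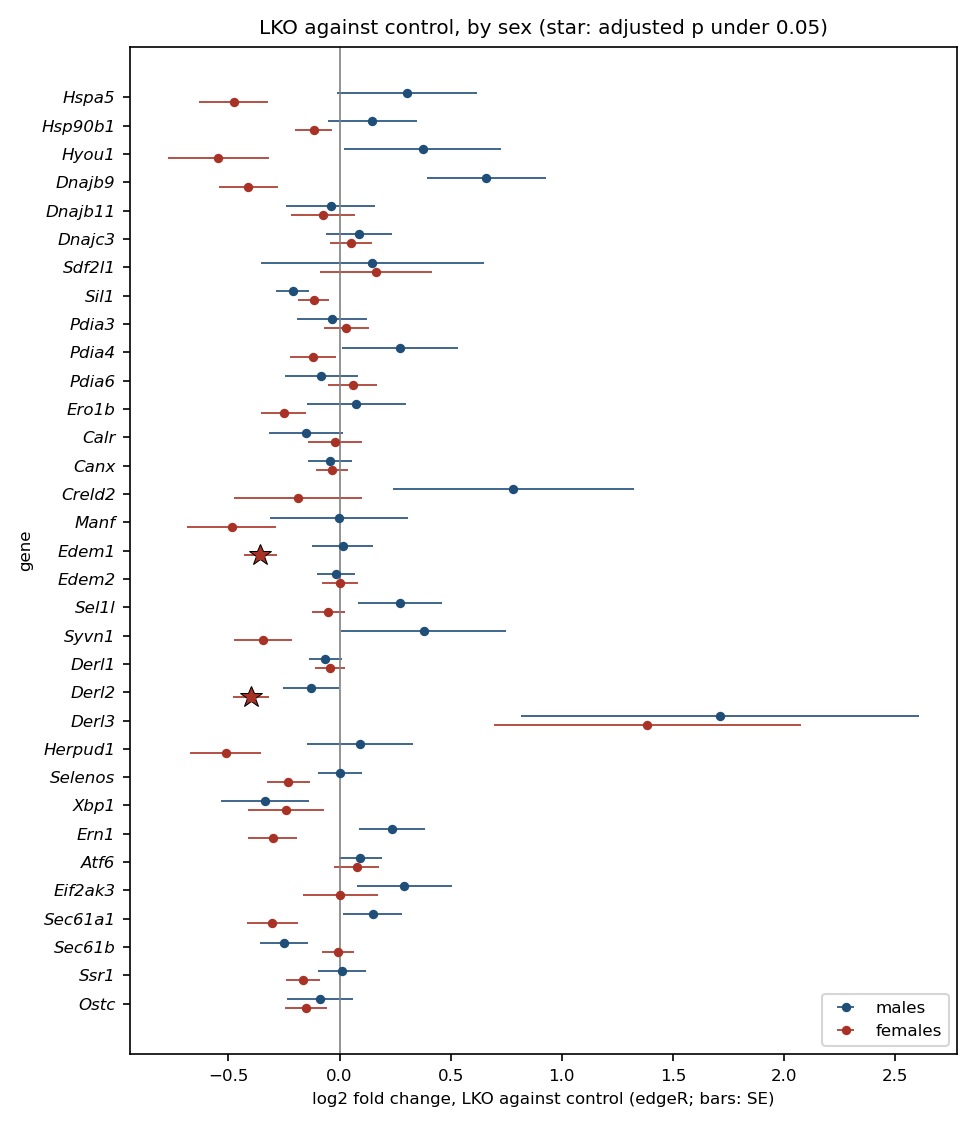
Log2 fold change of LKO against control (edgeR, bars show the SE) for the 33 members in males and females, with stars at an adjusted p under 0.05. The stars are Edem1 (-0.36) and Derl2 (-0.40) in females, and the widest bars are those of Derl3.

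The difference between the sexes was itself tested over all 23 samples. The genotype by sex interaction called 0 of 33 members, as it called 0 of 14503 genes (0%), and an unadjusted p under 0.05 was reached by 12.9% of all genes, 5.94% in the lower direction, and by 5 members. Those 5 had a more negative fold change in females than in males: Dnajb9 differed by -1.07 (edgeR, SE 0.31, adjusted p = 0.199), Hspa5 by -0.78, Ern1 by -0.54, Sec61a1 by -0.45 and Edem1 by -0.37. Without LKO male replicate 1 the difference was -0.40 for Hspa5 and -0.73 for Dnajb9, and 3 members had an unadjusted p under 0.05. That number was also 3 when control male 3 was left out, 11 when control male 4 was, 8 when LKO female 5 was, and 9 when LKO male 3, 4 or 5 was. The median difference of the members was -0.26, and -0.10 without LKO male replicate 1. DESeq2 called 88 genes in this comparison, with 0 members among them. The calls of Edem1 and Derl2 in females are therefore not shown to differ from the male values of 0.01 and -0.13.

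The mean change over both sexes, fitted on the same samples, called 0 of 33 members where 0.545% of genes were called, and 5 members and 14.8% of genes had an unadjusted p under 0.05. Derl2 had the lowest p of the members, with a log2 fold change of -0.26 (edgeR, SE 0.07, adjusted p = 0.101), followed by Sil1 at -0.16 (edgeR, SE 0.05, adjusted p = 0.119). Sil1 was the steadier of the pair across sexes, at -0.21 in males and -0.12 in females, and DESeq2 called both (adjusted p = 0.0351 for Derl2 and 0.0374 for Sil1). Edem1 was at -0.17, Xbp1 at -0.29 and Derl3 at 1.55 in this fit. Derl3 was at 0.80 without LKO male replicate 1.

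**Figure D4:**
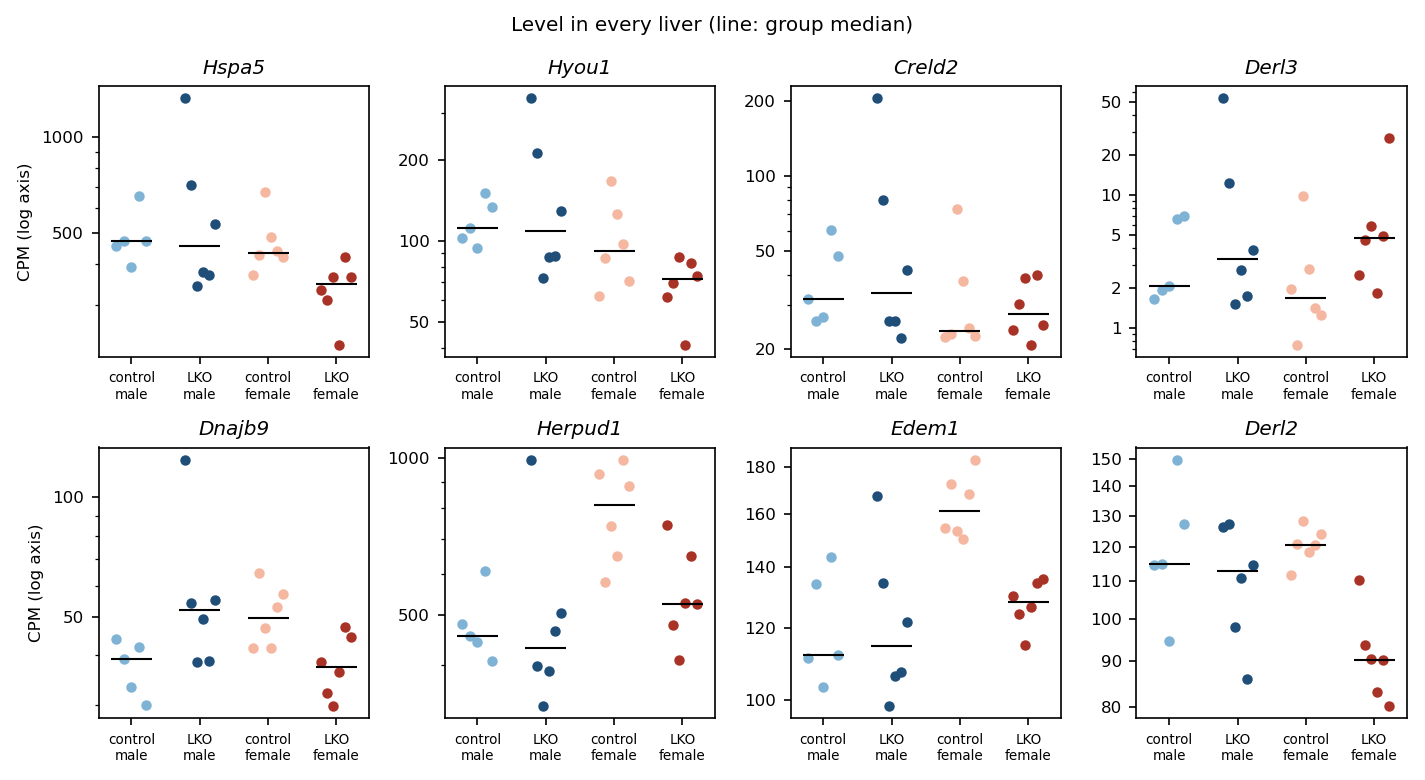
CPM (log axis) of 8 members in every liver of the 4 groups, with a line at the group median. LKO male replicate 1 is the highest point for Hspa5 (1321 CPM), Hyou1 (339), Creld2 (206), Derl3 (53.5) and Dnajb9 (124), and the LKO females lie below all control females for Edem1 and Derl2.

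Control livers of the 2 sexes differed in 6 of 33 members (18.2%), close to the 18% of 13699 genes that were called, and the sex of a sample coincides with its deposited table, so the effects of sex and of table cannot be told apart. Herpud1 was higher in control females, with 408, 456 and 608 CPM (lowest, median, highest) in males against 579, 812 and 989, a difference of 0.72 on the log2 scale (edgeR, SE 0.15, adjusted p = 0.00612). Edem1 was higher by 0.44 (edgeR, SE 0.10, adjusted p = 0.00943), with every female above every male, and Dnajb9 by 0.43 (edgeR adjusted p = 0.0444), a call lost in 10 of 17 alternatives (adjusted p of 0.0279 to 0.151 over all of them). Sec61b was lower in females, at 69.2 to 76.6 CPM against 85.7 to 117, a difference of -0.45 on the log2 scale (edgeR, SE 0.09, adjusted p = 0.00428). Pdia6 was at -0.40 (edgeR adjusted p = 0.0272), a call lost in 5 of 17 alternatives (0.00548 to 0.129), and Edem2 at -0.31 (edgeR adjusted p = 0.0127), with 62.3 to 76.6 CPM in females below 80.0 to 87.3 in males. Groups did not overlap for Edem1, Edem2, Sec61b and Derl1, 4 of 33 members, where 10.3% of genes did not overlap; Derl1, named after its values were seen, was at -0.14 and not called (edgeR adjusted p = 0.145). Edem1 in LKO females, at 115 to 136 CPM, lay within the range of the control males, 103 to 143.

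The members varied together from liver to liver within groups. With the group means removed, log2(CPM + 1) of 32 of the 32 other members correlated positively with Hspa5 over 23 livers. Pearson's r was at least 0.5 for 28 of them (87.5%), where 5.43% of 14502 genes reached that value. The closest were Syvn1 (r = 0.961, Spearman's rho = 0.918), Manf (0.957 and 0.961), Hyou1 (0.956 and 0.945), Pdia4 (0.954 and 0.919), Hsp90b1 (0.947 and 0.884) and Creld2 (0.941 and 0.906). For each of these 6, the permutation p of r and of rho was 1e-05, the smallest that 100000 shuffles within groups can give, and the Benjamini-Hochberg adjusted p over the 32 members was 3.56e-05 for r and 4e-05 for rho. In all, 28 members had an adjusted permutation p under 0.05 for r and 25 for rho. All values come from the same libraries, and the members had been listed together as ER genes.

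LKO males 1 and 3 were farthest from their group mean in Hspa5. Without them r was at least 0.5 for 22 members and for 2.21% of all genes, and r stayed at 0.957 for Manf, 0.933 for Hyou1 and 0.915 for Syvn1. For other members the relation rested on those livers: r went from 0.575 to 0.108 for Herpud1, from 0.717 to 0.353 for Dnajb9, from 0.567 to 0.31 for Derl1, from 0.5 to 0.207 for Atf6 and from 0.387 to -0.02 for Eif2ak3. Within the 12 females alone, r was 0.952 for Manf, 0.925 for Hyou1 and 0.879 for Syvn1, but -0.12 for Edem1, -0.08 for Herpud1 and 0.301 for Derl2. Within the 11 males those values were 0.94, 0.849 and 0.726 for Edem1, Herpud1 and Derl2. Xbp1 kept its r (0.638, and 0.69 without the 2 livers), and Sec61b had the lowest of all, 0.0918.

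**Figure D5:**
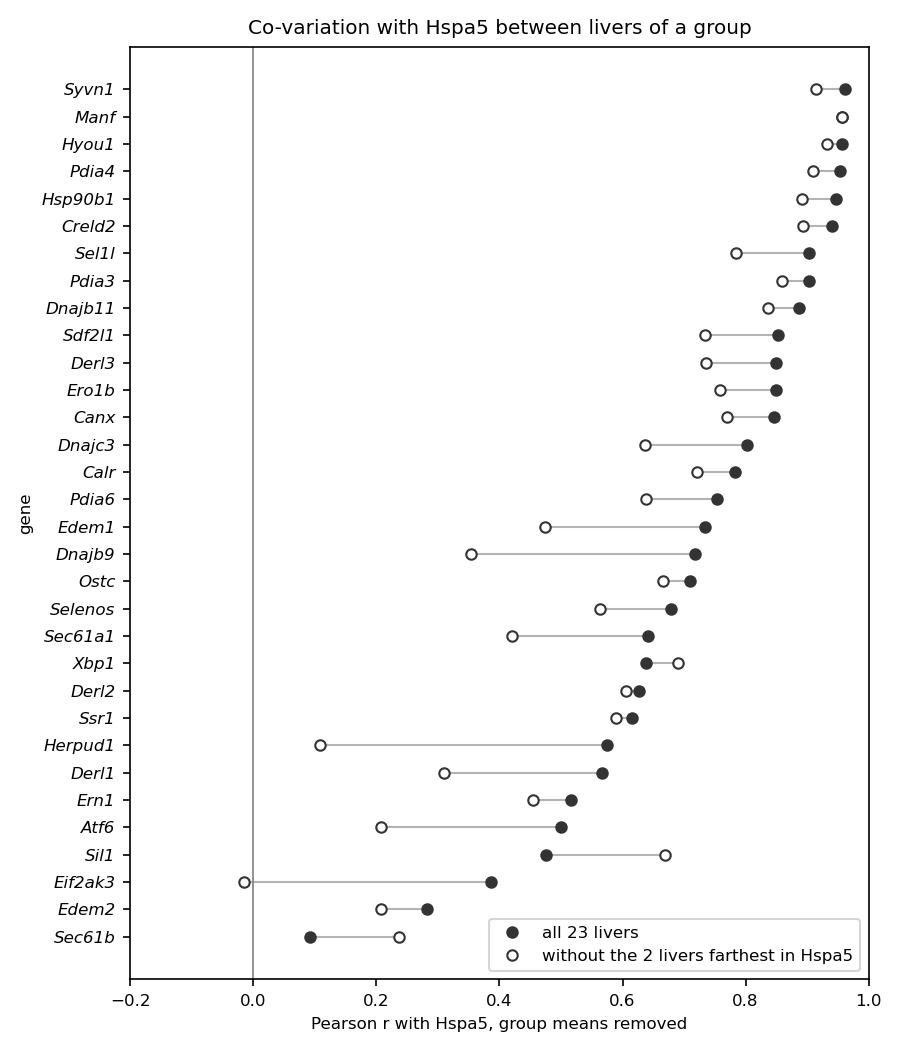
Pearson r of each of the 32 other members with Hspa5 (group means removed), over 23 livers (filled) and without LKO males 1 and 3 (open). Syvn1, Manf and Hyou1 are above 0.9 in both, while Herpud1 and Eif2ak3 move toward 0.

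The members with an exact match to an ER stress element (either kind) before the start had r with Hspa5 from 0.575 to 0.961. Their median was 0.848 over 10 genes apart from Hspa5. The 15 members with a promoter entry and no match ranged from 0.0918 to 0.954, with a median of 0.678. The ranges overlap widely, Pdia4 having an r of 0.954 and no match. In LKO male replicate 1 the fold over the other LKO males had a median of 1.94 in the 11 members with a match and 1.47 in the 15 without, with ranges of 1.25 to 12 and 1 to 3.71.

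Outside the list, 1 of the 9 genes in the whole table with an r of at least 0.9 was no member. It was Tbccd1, at 0.906, named after its values were seen. An r of at least 0.8 was reached by 33 genes, 14 of them members. The rest included genes of the wider ER pathway, also named after their values were seen: Magt1 (0.872), Uggt1 (0.856), Spcs2 (0.855), Sec11a (0.842) and Hspa13 (0.842). High co-variation with Hspa5 was thus not particular to the members. Genes of the wider ER pathway were also examined, in 6 lists of 150 genes that hold no member. In males none was called. Over all genes tested, 0.00724% were called in males and 1.42% in females. In females 1 translocation and glycosylation gene of 33 rose, Tusc3, an oligosaccharyltransferase subunit (log2 fold change 0.49, SE 0.11, edgeR adjusted p = 0.0486), with 5.50 to 6.87 CPM in controls and 6.64 to 9.88 in LKO. Of 28 tested genes of ER-to-Golgi export, 1 fell, the COPII coat subunit Sec23b (-0.49, SE 0.11, edgeR adjusted p = 0.0384), with 28.6 to 41.3 CPM in controls and 21.1 to 28.7 in LKO. For the mean of both sexes 1 of 31 folding genes was called lower, Cnpy2 (-0.26, SE 0.06, edgeR adjusted p = 0.04885). Over all genes 0.545% were called in that fit. Of the 14 genes listed for the PERK and integrated stress response, 14 were tested in males and 13 in females, and none was called. The median was -0.21 in males and 0.01 in females. Atf4, the transcription factor translated when PERK is active, was at -0.31 in males (edgeR, SE 0.09, adjusted p = 0.274). In LKO male replicate 1 the median of that list was 0.15 above the control mean on the log2(CPM + 1) scale, the median of the ER-to-Golgi export list was 0.22, and the medians of the other 4 lists, of sensors, folding enzymes, ERAD genes and translocation genes, were 0.09 to 0.12. The median of the members was 0.56.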

How the data were processed

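Liver polyA RNA of 23 mice was analysed from 1 deposited table per sex. Per the submitters' processing notes, HISAT2 2.0.5 and the mm39 build were used, and the counter, annotation release and strand setting are not given in the sources used here, so 12 members that overlap another listed gene carry that uncertainty. Manf (at least 659 counts in a library) shares 6511 same-strand bases with Rbm15b (at most 278) and 42681 opposite-strand bases with Dcaf1 (at most 318). Syvn1 (at least 1016) shares 91 opposite-strand bases with Mrpl49 (at most 680). The tables hold raw read counts deposited for every sample, with the authors' FPKM, the authors' normalized count signal, and the authors' log2 fold changes and p-values, which were used only where named.

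The deposited counts were fitted with edgeR 4.0.16 (R 4.3.3): filterByExpr, TMM factors, quasi-likelihood test, Benjamini-Hochberg adjustment over all genes tested, with genes called where the adjusted p was under 0.05. Males and females had separate fits. The mean, the interaction and the co-variation used all 23 samples and 14503 genes kept from those in both tables, and the control comparison used the controls alone. Printed CPM are scaled by TMM over all 23 samples. The scripts were tested on simulated data. The alternatives were RLE factors, library totals, other filters on low counts, DESeq2 1.42.0, a replicate block, 1 fit of all samples, and leaving out each sample.

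The members and lists were chosen with earlier results of these data known. Values are given for members called in any comparison, for members whose LKO and control values did not overlap in a sex, for the lowest p of each role group per sex, and for Cpt1a. Promoter sequences are from RefSeq, build GRCm38.p6.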

Additional observations from a re-analysis of the deposited data

Results flagged for a closer look

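Of 132 combinations of a member and a group, 19 had a highest or lowest sample whose gap to the next exceeded Dixon's 95% critical value. Chance flags about 1 in 20 groups of normally distributed values, while these were CPM without a log. No share of flagged groups over all genes is given, so the number is not a result about the members. Since the members vary together the flags are not independent. LKO male replicate 1 accounted for 7, all as the highest of its group: Hspa5 at 1321 CPM (next 707), Dnajb9 at 124.4 (next 55.1), Creld2 at 205.9 (next 79.6), Derl3 at 53.53 (next 12.4), Herpud1 at 990.7 (next 504), Atf6 at 59.01 (next 47.0) and Eif2ak3 at 24.5 (next 15.9). Control female replicate 3 accounted for 5, again the highest: Hsp90b1 at 368.2 CPM, Sdf2l1 at 37.61, Pdia4 at 181, Creld2 at 73.72 and Derl3 at 9.91. LKO female replicate 6 accounted for 4, with Sdf2l1 at 44 CPM, Pdia6 at 274.5, Derl1 at 179.5 and Derl3 at 26.85. Control male replicate 4, the shallowest library, was highest for Ero1b at 66.74 CPM and Ern1 at 31.69. LKO female replicate 4 was lowest for Syvn1 at 52.71 CPM.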

How the results depend on the processing

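No member was called in males under any alternative, and the members' medians stayed within the spread between samples. In males that spread was a standard deviation of 0.33 between LKO livers, LKO male replicate 1 included, which is a wide limit. Within it the median changed sign, from 0.07 to -0.08 without that liver. Among all genes, calls in males (1) were 2 with library totals, 2 without a filter, 3 with at least 10 counts in every sample, 106 with DESeq2, 5 in 1 fit of all 23 samples and 1 to 2 when leaving out each sample. In females (194) they were 554 with DESeq2, 94 in 1 fit of all samples and 87 to 233 leaving out each sample. For the mean of both sexes (79) they were 320 with DESeq2 and 30 to 206, and for the interaction (0) 88 with DESeq2 and 0 to 17. Members called in females (2) were 0 in 1 fit of all samples and 0 to 3 leaving out each sample; for the mean of both sexes (0) they were 2 with DESeq2 and 0 to 1. Canx in females changed sign with library totals (0.0062), and in males the range over left-out samples was -0.014 to 0.52 for Hyou1 and -0.027 to 0.39 for Pdia4, negative without LKO male replicate 1. The causes were not tested.

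The replicate numbers were not taken to pair the samples, since not every correlation was over 0.1, although 5 of 6 female pairs were. Correlations of same-numbered deviations were -0.377 to 0.417 in males, -0.0139 to 0.184 in females and -0.187 to 0.121 between controls, and 1 of 5, 4 of 6 and 1 of 5 pairs correlated best with their own number. The replicate block gave 2 calls in males, 334 in females, 46 for the mean and 991 between control sexes (2466 without it), where members called went from 6 to 1. With the block Herpud1 was also called in females (adjusted p = 0.028). Depth limits the low members most, Derl3 (0.752 to 53.5 CPM) above all.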
